A study of Mus musculus with 12 samples.

Results

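The genes described here encode lysosomal hydrolases, lysosomal membrane proteins and closely allied factors, 38 in number, measured in C57BL6J mouse submandibular gland, a salivary gland. They were matched by the gene symbol in the array annotation. All 38 had at least 1 probe on the array. Genes with a probe detected (p-value under 0.05) on 6 or more of the 12 arrays were kept, namely 35 of these 38 genes and 9379 genes in all. Total RNA of the whole gland was hybridised to 6 arrays from mice of 50 weeks and 6 arrays from mice of 8 weeks, all of the same strain, with no treatment stated. The sex of the mice is not given in the sources used here, and neither is whether the arrays came from separate animals, so the p-values measure the spread between these arrays, which may be technical in part. In whole-gland RNA a change in the number of cells of a type and a change in the RNA level per cell cannot be told apart.

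Lysosomes are acidic organelles in which proteins, glycans, sulfated polymers and lipids are broken down. Their soluble hydrolases are made in the endoplasmic reticulum, tagged with mannose 6-phosphate in the Golgi and carried by receptors to endosomes, while heavily glycosylated proteins such as Lamp1 and Lamp2 line the membrane. Secretory epithelium uses lysosomes to turn over organelles and unused secretory granules, and macrophages hold many of them for digesting what they engulf. The transcription factor TFEB and its relatives raise the expression of many of these genes by binding an E-box variant in their promoters, called the CLEAR element.

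Mean probe intensity lay between 223 and 302 on the 50-week arrays and between 207 and 324 on the 8-week arrays. At 50 weeks 15318 probes were detected on array 6 and 16570 to 18110 on the others. At 8 weeks 15321 to 16433 were detected, so all 50-week arrays but array 6 had more than every 8-week array. Array 6 of 50 weeks stood apart: its mean correlation with the other arrays of its age over all tested genes was 0.949, against 0.975 or more for each of the other 11 arrays. It gave the highest value of its age for 18 of the 35 lysosomal genes and the lowest for 7, so results are also given without it where they change. The gland was checked by its own secretory markers: all 13 acinar genes listed for the check passed the detection filter, and so did 6 of the 7 granular duct genes on the array. Detection does not show an equal tissue mix: the log2 SD was 2.63 at 50 weeks and 2.58 at 8 weeks for Amy1, and 4.00 and 2.81 for Smr3a. The sublingual marker Muc19 read 10.44 to 11.01 at 50 weeks and 10.04 to 11.12 at 8 weeks. The mean of 2 adipocyte genes ran from 4.71 to 6.61 at 50 weeks and from 4.84 to 9.69 at 8 weeks, highest on array 2. Values below are log2 intensities after background correction and quantile normalisation, and each difference is 50 weeks minus 8 weeks, given with its fitted standard error.

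Of the 35 lysosomal genes tested, 6 differed between the ages, or 17.1%, against 12.5% of all genes tested. The lysosomal genes were chosen with earlier results of these data known, so these shares are description and not a test. Ctsa, Hexa, Ctsc and Gusb were higher at 50 weeks, where 6.35% of all genes were, and Lamp2 and Ctsf were lower, where 6.13% of all genes were. The calls are those of limma's moderated test at a Benjamini-Hochberg adjusted p under 0.05, with all 9379 genes in the adjustment. Fitting the array number as a block kept the 4 higher calls and lost those of Lamp2 and Ctsf, with 9.71% of all genes called. Of the 35 differences 22 were positive and 13 negative, with a median of 0.07 against -0.02 over all genes. They ran from -0.30 to 0.72, so that no difference reached a doubling. The values of the 50-week and 8-week arrays did not overlap for 4 genes that were higher and 1 that was lower. Of all genes 6.45% did not overlap, 3.34% being higher and 3.11% lower.

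**Figure D1:**
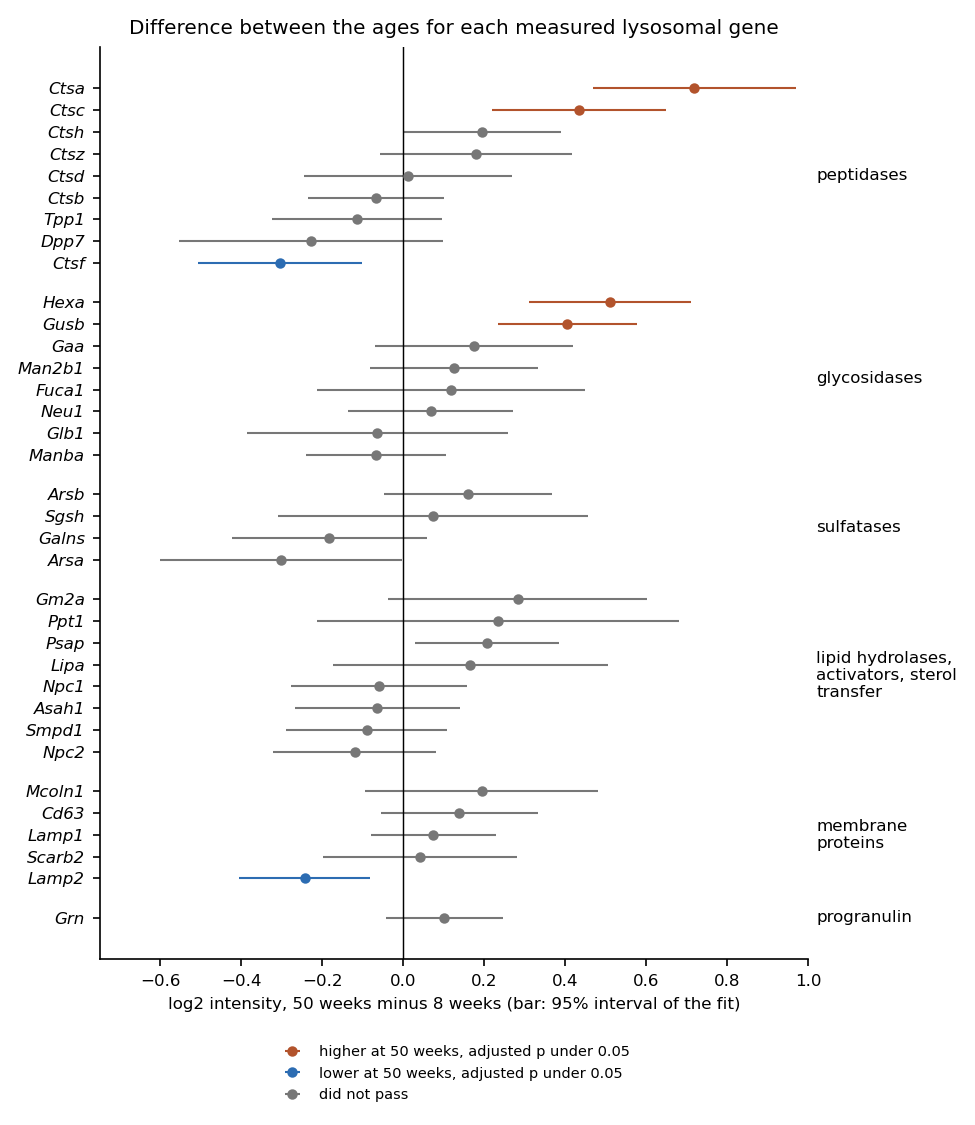
Difference in log2 intensity (50 weeks minus 8 weeks, x axis) for the 35 measured lysosomal genes, ordered by role, with the 95% interval of the fit (6 arrays per age). The 4 genes in orange, Ctsa, Ctsc, Hexa and Gusb, lie between 0.41 and 0.72, the 2 in blue, Lamp2 and Ctsf, lie at -0.24 and -0.30, and the intervals of most others cross 0.

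Ctsa encodes cathepsin A, a serine carboxypeptidase also called protective protein because it binds and stabilises beta-galactosidase and neuraminidase 1 in the lysosome. On its brightest probe (ILMN_2669714) the 50-week arrays ran from 7.54 to 8.11 with a median of 7.63, and the 8-week arrays from 6.73 to 7.32 with a median of 6.94. The lowest 50-week array lay above the highest 8-week array. Ctsa averaged 7.70 ± 0.21 at 50 weeks and 6.98 ± 0.21 at 8 weeks (SD, n = 6 each), a 1.65-fold rise (log2 difference 0.72 ± 0.12, limma adjusted p = 0.00163). A second kept probe of Ctsa (ILMN_1213617), detected on 5 of 6 arrays of 50 weeks and 6 of 6 of 8 weeks, differed by only 0.05 ± 0.23. With the mean of the kept probes the difference of Ctsa was 0.39 and did not pass (limma adjusted p = 0.0721). The rise of Ctsa rests on the brighter of its kept probes. The genes of its partners did not pass the test: Glb1, beta-galactosidase, differed by -0.06 ± 0.15 (95% interval -0.39 to 0.26), and Neu1, neuraminidase 1, by 0.07 ± 0.09 (95% interval -0.14 to 0.27).

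Hexa encodes the alpha subunit of beta-hexosaminidase A, which removes N-acetylgalactosamine from the ganglioside GM2. Its only probe (ILMN_2773624) read 8.57 to 9.02 with a median of 8.84 on the 50-week arrays, and 8.19 to 8.52 with a median of 8.28 on the 8-week arrays. The groups did not overlap, although the lowest 50-week array and the highest 8-week array were close. The means were 8.84 ± 0.16 at 50 weeks and 8.33 ± 0.14 at 8 weeks (SD, n = 6 each), a 1.42-fold rise (0.51 ± 0.09, limma adjusted p = 0.00342). Hexa was the only member that kept its call under all 23 alternative settings tried.

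Ctsc encodes cathepsin C, or dipeptidyl peptidase I, which activates the serine proteases stored in granules of immune cells. Its brightest probe (ILMN_3008858) read 9.02 to 9.28 with a median of 9.08 at 50 weeks, and 8.39 to 9.01 with a median of 8.62 at 8 weeks. The 50-week arrays lay close together, and the highest 8-week value, that of array 2, was just under the lowest of them. Ctsc averaged 9.10 ± 0.09 at 50 weeks and 8.67 ± 0.22 at 8 weeks (SD, n = 6 each), a 1.35-fold rise (0.43 ± 0.10, limma adjusted p = 0.013). The other kept probes of Ctsc differed by 0.43 and 0.36, and each of the 3 passed in a fit over all kept probes (limma adjusted p = 0.0436 and 0.0453 for these). All 3 probes of this gene therefore moved by a similar amount.

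Gusb encodes beta-glucuronidase, which removes glucuronic acid from the ends of glycosaminoglycan chains. Its brightest probe (ILMN_2855334) read 7.97 to 8.08 with a median of 8.04 at 50 weeks, and 7.37 to 7.75 with a median of 7.70 at 8 weeks. The spread at 50 weeks was the narrower, with an SD of 0.04 against 0.15. Gusb averaged 8.03 ± 0.04 at 50 weeks and 7.63 ± 0.15 at 8 weeks (SD, n = 6 each), a 1.32-fold rise (0.41 ± 0.08, limma adjusted p = 0.00553). Its other 3 kept probes were dimmer and differed by 0.16, 0.25 and 0.30, and none of these passed in the fit over all kept probes (limma adjusted p from 0.284 to 0.55).

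Lamp2, a main glycoprotein of the lysosomal membrane that also serves in chaperone-mediated autophagy, fell. Its brightest probe (ILMN_1217454) read 11.09 to 11.40 with a median of 11.33 at 50 weeks, and 11.42 to 11.64 with a median of 11.55 at 8 weeks. The groups did not overlap, but by a narrow margin. Lamp2 averaged 11.30 ± 0.12 at 50 weeks and 11.54 ± 0.07 at 8 weeks (SD, n = 6 each), a log2 difference of -0.24 ± 0.08 (limma adjusted p = 0.049). Of its 6 kept probes all had a negative difference, from -0.32 to -0.01. In the fit over all kept probes, ILMN_2508945 passed (-0.32 ± 0.09, limma adjusted p = 0.0395) and the brightest probe did not (limma adjusted p = 0.0641). The call was lost when any single array other than 50 weeks array 6 was left out, with limma adjusted p up to 0.102.

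Ctsf encodes cathepsin F, a cysteine protease. Its probe (ILMN_2615879) read 5.57 to 6.03 with a median of 5.84 at 50 weeks, and 5.93 to 6.35 with a median of 6.17 at 8 weeks. The groups overlapped, with 4 of 6 arrays of 50 weeks below every array of 8 weeks. Ctsf averaged 5.85 ± 0.16 at 50 weeks and 6.15 ± 0.15 at 8 weeks (SD, n = 6 each), a log2 difference of -0.30 ± 0.09 (limma adjusted p = 0.0494). Leaving out 50 weeks array 1, 2, 4 or 5 or 8 weeks array 1, 4, 5 or 6 ended the call, with limma adjusted p up to 0.105.

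**Figure D2:**
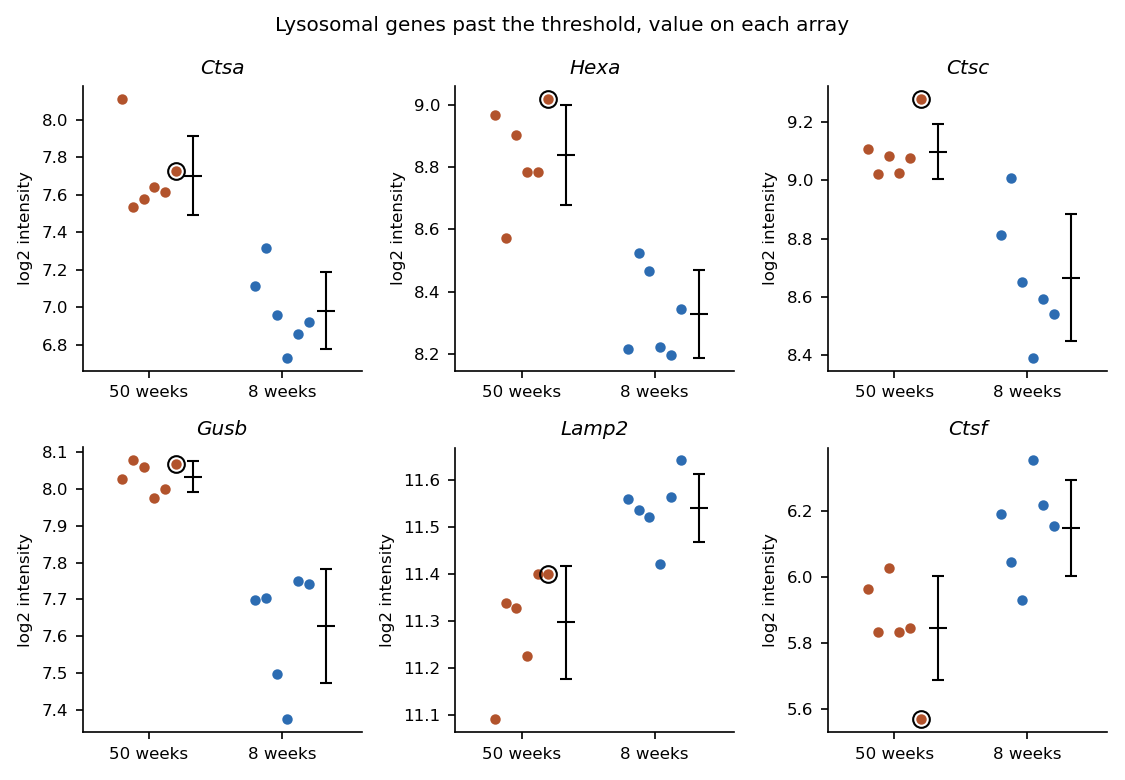
Log2 intensity (y axis, a separate scale for each gene) on each array for the 6 lysosomal genes past the threshold, with 50 weeks at left and 8 weeks at right. Bars give the mean ± SD of 6 arrays, points within an age run from array 1 to array 6, and the ringed point is 50 weeks array 6. Ctsa, Hexa, Ctsc and Gusb do not overlap between the ages, Lamp2 does not overlap by a narrow margin, and Ctsf overlaps.

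The remaining peptidases did not pass. Of the 9 peptidase genes measured 2 were higher, 1 was lower and 6 did not pass. Ctsh, an aminopeptidase, differed by 0.19 ± 0.09 (limma adjusted p = 0.184), with 3 of 6 arrays of 50 weeks above every array of 8 weeks, and its second probe differed by 0.23. Ctsz, a carboxypeptidase, differed by 0.18 ± 0.11 on its brightest probe and 0.18 on the other. Ctsb, a cysteine protease with both endo- and exopeptidase action, had 12.35 ± 0.02 at 50 weeks and 12.41 ± 0.15 at 8 weeks (SD, n = 6 each), a difference of -0.07 ± 0.08. The 95% interval of that difference was -0.24 to 0.10. The aspartic protease gene Ctsd differed by 0.01 ± 0.12, the tripeptidyl peptidase gene Tpp1 by -0.11 ± 0.10 and the dipeptidyl peptidase gene Dpp7 by -0.23 ± 0.15. Ctsl, the gene of cathepsin L, and Ctso, that of cathepsin O, were detected on 0 of 12 arrays by their 1 and 3 probes, so no difference is given for them.

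Of the 8 glycosidase genes, Hexa and Gusb were higher and the other 6 did not pass. The mean over these 8 genes was 8.48 ± 0.14 on the 50-week arrays and 8.32 ± 0.04 on the 8-week arrays (SD, n = 6 each), and was above every 8-week array on 6 of 6 arrays of 50 weeks. This mean includes the 2 genes that rose, and the means of the other roles overlapped between the ages. The peptidase mean differed by 0.09 ± 0.05, with 2 of 6 arrays of 50 weeks above every 8-week array. For lipid breakdown and sterol transfer it was 0.07 ± 0.04 (1 of 6), for membrane proteins 0.04 ± 0.04 (2 of 6) and for sulfatases -0.06 ± 0.11 (1 of 6). Gaa, the acid alpha-glucosidase that degrades glycogen, differed by 0.17 ± 0.11. Man2b1, the acid alpha-mannosidase, differed by 0.13 ± 0.10 on its brightest probe and 0.21 on another. The beta-mannosidase gene Manba differed by -0.07 ± 0.08, with 0.08 on its other probe. Fuca1, the alpha-fucosidase gene, was near the detection floor, detected on 4 of 6 arrays of 50 weeks and 2 of 6 of 8 weeks, so its fitted difference of 0.12 ± 0.15 is only a rough value.

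The sulfatase genes, which serve the breakdown of sulfated glycosaminoglycans and sulfatide, showed 0 of 4 past the threshold in limma, with 1 at an unadjusted p under 0.05. Arsa, arylsulfatase A, which acts on sulfatide, read 6.52 to 7.29 with a median of 6.68 at 50 weeks, and 6.80 to 7.43 with a median of 7.00 at 8 weeks. All 50-week arrays but array 6 lay below every 8-week array, and the difference over all arrays was -0.30 ± 0.14 (limma adjusted p = 0.181). Without that array it was -0.41 ± 0.11 and passed (limma adjusted p = 0.0157). Galns, the sulfatase for keratan and chondroitin 6-sulfate, differed by -0.18 ± 0.11 over all arrays and by -0.26 ± 0.09 without array 6 of 50 weeks (limma adjusted p = 0.046). Arsb, which acts on dermatan sulfate, differed by 0.16 ± 0.10 on its brightest probe and by -0.21 on a dimmer one, and Sgsh, which acts on heparan sulfate, by 0.07 ± 0.18.

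Genes of lipid breakdown and sterol transfer had 0 of 8 past the threshold in limma, with 1 at an unadjusted p under 0.05. Gm2a, the activator that presents GM2 to beta-hexosaminidase A, read 8.49 to 9.57 with a median of 9.20 at 50 weeks, and 8.66 to 9.13 with a median of 8.82 at 8 weeks. The lowest 50-week value was that of array 6, with 4 of the other 5 above every 8-week array. Its difference was 0.28 ± 0.15 over all arrays (limma adjusted p = 0.241) and 0.41 ± 0.10 without array 6 (limma adjusted p = 0.0127). Ppt1, the thioesterase that removes palmitate from proteins, read 5.21 on array 6 and 6.38 to 6.60 on the other 50-week arrays, against 5.51 to 6.27 at 8 weeks. It differed by 0.23 ± 0.21 over all arrays and by 0.44 ± 0.11 without array 6 (limma adjusted p = 0.0153). Psap, the precursor of the saposins that activate sphingolipid hydrolases, differed by 0.21 ± 0.08 (limma adjusted p = 0.12). Of the fits that left out 1 array, it passed only in that without 8 weeks array 2 (0.27, limma adjusted p = 0.027). In that fit 13.4% of all genes passed. The array left out held its highest 8-week value, 11.99, with 11.70 next. The acid lipase gene Lipa differed by 0.17 ± 0.16, the acid ceramidase gene Asah1 by -0.06 ± 0.09 and the acid sphingomyelinase gene Smpd1 by -0.09 ± 0.09.

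The proteins NPC1 and NPC2 pass cholesterol out of the lysosome in turn. Npc1 differed by -0.06 ± 0.10, and its other kept probes by -0.19 and 0.07. Npc2 read 8.93 to 9.43 with a median of 8.98 at 50 weeks, and 9.07 to 9.30 with a median of 9.15 at 8 weeks. Again array 6 of 50 weeks was the exception, with the other 5 arrays below every 8-week array. The difference of Npc2 was -0.12 ± 0.09 over all arrays and -0.20 ± 0.06 without array 6 (limma adjusted p = 0.0344).

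Of the 5 membrane protein genes Lamp2 fell and 4 did not pass. Lamp1, the other main membrane glycoprotein, had 11.35 ± 0.06 at 50 weeks and 11.27 ± 0.10 at 8 weeks (SD, n = 6 each), a difference of 0.07 ± 0.07 with a 95% interval of -0.08 to 0.23. The tetraspanin gene Cd63 differed by 0.14 ± 0.09 over all arrays and by 0.21 ± 0.06 without array 6 of 50 weeks (limma adjusted p = 0.0318), although its other kept probes differed by 0.00 and -0.18. Scarb2, the receptor that carries beta-glucocerebrosidase to the lysosome, differed by 0.04 ± 0.11, with -0.22 on another probe. Mcoln1, the gene of a calcium-releasing channel, differed by 0.19 ± 0.13. Grn, the precursor of granulins and a regulator of lysosomal function, differed by 0.10 ± 0.07 (95% interval -0.04 to 0.25). Tfeb, the transcription factor gene, was detected on 0 of 12 arrays by either of its 2 probes. Of the genes of its relatives, Tfec was also detected on 0 of 12 arrays. Tfe3 was detected on 6 of 6 arrays of each age and differed by 0.18 ± 0.09 (limma adjusted p = 0.236).

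Of the 35 genes 17 had several kept probes, and in 6 of these, Arsb, Cd63, Scarb2, Npc1, Manba and Smpd1, the probes differed in sign. In the other 11 the kept probes of a gene had the same sign.

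**Figure D3:**
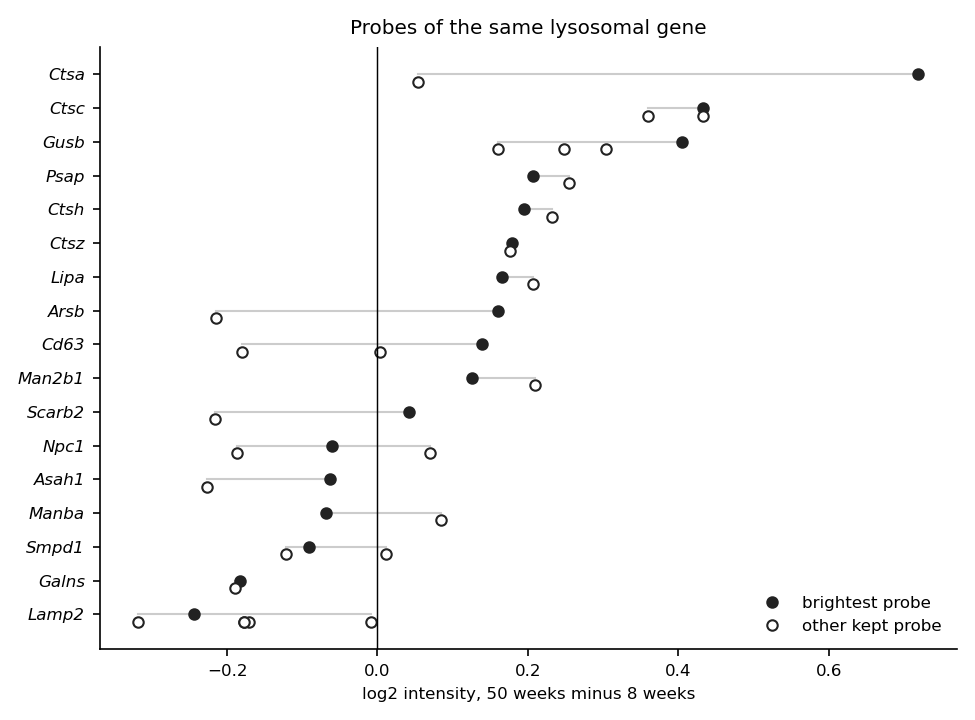
Log2 difference (50 weeks minus 8 weeks, x axis) of every kept probe for the 17 lysosomal genes with several kept probes, with the brightest probe filled and the others open. The 3 probes of Ctsc lie together at 0.36 to 0.43, those of Ctsa lie apart at 0.05 and 0.72, and 6 genes have probes on either side of 0.

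Leaving out array 6 of 50 weeks raised the number of lysosomal genes past the threshold to 12 of 35, with 7 higher and 5 lower. Over all genes the share past the threshold was then 25%, with 11.4% higher and 13.6% lower. The 6 genes called over all arrays were also called without it, and Gm2a, Ppt1 and Cd63 were added as higher and Arsa, Npc2 and Galns as lower. The mean over all 35 lysosomal genes was 8.38 ± 0.07 at 50 weeks and 8.31 ± 0.05 at 8 weeks (SD, n = 6 each), a difference of 0.08 ± 0.03, while the mean over all tested genes differed by -0.004 ± 0.009. Without array 6 of 50 weeks the difference of the lysosomal mean was 0.05. Array 6 had the highest mean of all 12 arrays, 8.51, and 3 of 6 arrays of 50 weeks lay above every array of 8 weeks. Without the 6 called genes the mean of the others differed by 0.04 ± 0.04.

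**Figure D4:**
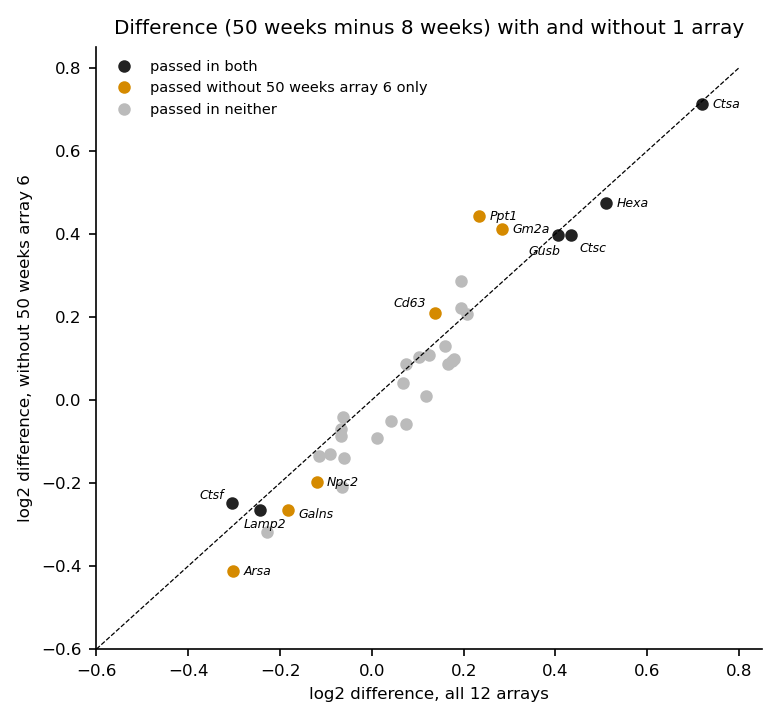
Log2 difference (50 weeks minus 8 weeks) of the 35 lysosomal genes over all 12 arrays (x axis) and without 50 weeks array 6 (y axis), with the dashed line marking equal values. The 6 genes in black passed in both fits, and the 6 in orange, Gm2a, Ppt1, Cd63, Npc2, Galns and Arsa, passed only in the fit without that array.

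Promoters of the lysosomal genes were searched for the E-box CACGTG, the core of the CLEAR element, because TFEB is known to act through it. The windows ran from 250 bases before to 50 bases after each annotated start, in RefSeq's promoter set for GRCm38.p6, and the motif reads the same on both strands. Of the 38 genes 33 had a window, and 11 of these, or 33.3%, held at least 1 E-box, against 8.09% of 27025 genes with a window and 12.2% of the 7628 array-tested genes with one. With a T before it on either strand (TCACGTG, which contains the E-box), the shares were 27.3% of the lysosomal genes and 4.29% of all genes. Of the array-tested genes with a window 7.28% held it. The 10-base CLEAR consensus, which extends it on either side, was in 0 of 33 lysosomal genes with a window and in 0.37% of all genes. Among array-tested genes with a window the share was 0.826%. Lamp1 held 4 E-boxes, the highest number among the lysosomal windows, and did not pass the test of age. Of the 4 genes that rose only Ctsa held E-boxes, 2 in number, the first starting 12 bases before the start site, in 1 of its 2 windows. Hexa, Ctsc and Gusb held none, and of the genes that fell Ctsf held 1 and Lamp2 none. Among the 30 tested genes with a window, the 10 with an E-box had a median difference of 0.04 and the 20 without had 0.13. Shown in full are the windows of the gene with the largest rise, of a gene that rose with no E-box, of the gene that fell with 1, and of the gene with 4, at chr2:164833523-164833822, chr9:59539290-59539589, chr19:4854915-4855214 and chr8:13158911-13159210 (GRCm38.p6, all on the plus strand), with each E-box in capitals.
Ctsa: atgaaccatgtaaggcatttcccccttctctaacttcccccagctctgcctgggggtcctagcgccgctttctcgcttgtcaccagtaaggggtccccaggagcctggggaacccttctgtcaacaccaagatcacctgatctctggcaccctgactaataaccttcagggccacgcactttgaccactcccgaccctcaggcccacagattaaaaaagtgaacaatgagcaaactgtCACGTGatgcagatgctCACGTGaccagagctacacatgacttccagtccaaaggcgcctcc
Hexa: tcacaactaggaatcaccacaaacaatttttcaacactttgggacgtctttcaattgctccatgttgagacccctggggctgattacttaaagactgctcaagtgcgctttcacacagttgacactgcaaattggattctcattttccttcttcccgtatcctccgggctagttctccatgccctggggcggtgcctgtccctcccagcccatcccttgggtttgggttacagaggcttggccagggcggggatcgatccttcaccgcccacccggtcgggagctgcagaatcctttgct
Ctsf: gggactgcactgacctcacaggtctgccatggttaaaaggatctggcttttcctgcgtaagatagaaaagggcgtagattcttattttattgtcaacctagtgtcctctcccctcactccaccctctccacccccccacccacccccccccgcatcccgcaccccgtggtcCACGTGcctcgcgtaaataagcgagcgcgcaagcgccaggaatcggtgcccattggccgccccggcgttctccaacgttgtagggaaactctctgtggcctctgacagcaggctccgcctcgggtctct
Lamp1: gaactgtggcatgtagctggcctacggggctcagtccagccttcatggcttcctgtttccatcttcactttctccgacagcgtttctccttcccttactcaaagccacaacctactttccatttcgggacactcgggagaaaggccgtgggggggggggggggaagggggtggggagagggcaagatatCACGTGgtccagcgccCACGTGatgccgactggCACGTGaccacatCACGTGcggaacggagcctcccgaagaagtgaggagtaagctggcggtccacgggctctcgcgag

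Genes outside the 38 that serve the same organelle were compared by lists written for this purpose. These lists too were written with earlier results of these data known, so their shares are description only. Over all genes tested 12.5% passed, with 6.35% higher and 6.13% lower. Of 20 other lysosomal hydrolase genes measured 3 were higher and 2 lower, with a median difference of 0.06. Man2b2, an alpha-mannosidase, rose by 0.42 ± 0.09 and Hyal1, a hyaluronidase, by 0.48 ± 0.11. Ctsw, a cathepsin of cytotoxic lymphocytes detected on 2 of 6 arrays of 8 weeks, was at least 1.866-fold higher, and Ctsk, a collagen-degrading cathepsin, changed by -0.43 ± 0.13. The calls of Ctsw and Ctsk were lost when certain single arrays were left out, with limma adjusted p up to 0.068 and 0.103. Those of Man2b2 and Hyal1 were kept without any 1 array.

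Of 29 other lysosomal membrane proteins and transporters 3 were higher and 1 lower. Tmem192, a membrane protein of the late endosome and lysosome, changed by -0.51 ± 0.10 (limma adjusted p = 0.00486). The cation channel gene Mcoln3, a relative of Mcoln1, was detected on 6 of 6 arrays of 50 weeks and 0 of 6 of 8 weeks. It passed the detection filter only through the 50-week arrays. With values under the floor set to it, the fold was at least 1.2, and the call was lost on the authors' scaled values (limma adjusted p = 0.189). The channel gene Tpcn2 rose by 0.45 ± 0.12 and the transporter gene Abca2, detected on 1 of 6 arrays of 8 weeks, was at least 1.10-fold higher, both with calls that some single arrays ended (limma adjusted p up to 0.0584 and 0.0643).

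The V-ATPase acidifies the lysosome, and 2 of its 17 measured genes passed, in opposite directions. Atp6v1c2, the gene of an epithelial form of the C subunit, read 7.74 as a mean at 50 weeks and 8.63 at 8 weeks, with no overlap, and changed by -0.89 ± 0.10 (limma adjusted p = 0.000128). Atp6v1g2, a form of the G subunit, rose by 0.51 ± 0.09 (limma adjusted p = 0.00293). None of the 21 genes of mannose 6-phosphate tagging and sorting passed in limma, with 4 at an unadjusted p under 0.05 and a median difference of 0.06. Of 18 genes of nutrient sensing at the lysosome, Rragd, a Rag GTPase gene, changed by -0.60 ± 0.12 and Mlst8, a subunit of the mTOR complexes, rose by 0.39 ± 0.10. Of 29 autophagy genes 0 were higher and 2 lower, Atg10 by -0.35 ± 0.07 and Gabarapl1 by -0.45 ± 0.13, the second call being lost without any 1 of 7 arrays (limma adjusted p up to 0.0679). Of 35 trafficking genes, Vps4b, an ATPase of the ESCRT machinery, changed by -0.46 ± 0.11, Rab9, a GTPase of late endosomes, by -0.41 ± 0.12, and Vps16, a tethering subunit, rose by 0.28 ± 0.08. The calls of Rab9 and Vps16 were lost without some single arrays (limma adjusted p up to 0.0884 and 0.065). Of 5 measured genes of cathepsin inhibitors 0 passed in limma, with 1 at an unadjusted p under 0.05. The share past the threshold was 25% of the other hydrolases, 13.8% of the other membrane proteins and transporters and 11.8% of V-ATPase genes. It was 11.1% for nutrient sensing, 8.57% for trafficking and 6.9% for autophagy, against 12.5% of all genes tested. The shares of the other hydrolases and membrane proteins include Ctsw, Mcoln3 and Abca2, which the detection filter kept mainly through the 50-week arrays.

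Markers of immune cells, which are rich in several of these hydrolases, also moved. Of 14 measured genes of macrophages and dendritic cells 8 were higher at 50 weeks, among them Ms4a7 (0.60 ± 0.13) and Aif1 (0.96 ± 0.22), and 0 were lower. The summed linear intensity of the 14 ran from 2934 to 4233 on the 50-week arrays and from 1756 to 3489 on the 8-week arrays, so the ages overlapped, and Itgam and Xcr1 were detected on 0 of 12 arrays. Array 2 of 8 weeks was highest of its age for this list, with a mean of 7.70 against at most 7.23 on the others, and it was also highest of its age for Ctsa, Hexa and Ctsc but not for Gusb (7.70, against 7.75 on array 5). On 50 weeks array 6 the order was the opposite, with this list lowest of its age at 7.42 and Hexa (9.02) and Ctsc (9.28) highest. Array 1 of 50 weeks was highest of its age for this list, at 7.87, and for Ctsa (8.11). It read 8.97 for Hexa and 9.11 for Ctsc, below array 6, and 8.03 for Gusb, against 8.08 on array 2. Of 8 T and NK cell genes 4 were higher, and Cd8a, Cd247 and Gzmb were detected on 0 arrays. Of these 4, Cd3g and Zap70 were detected on only 2 of 6 arrays of 8 weeks, so the filter kept them mainly through the 50-week arrays. The summed intensities of the 8 were 929 to 2525 at 50 weeks and 681 to 1570 at 8 weeks. They came largely from Prf1, which averaged 9.58 at 50 weeks and 9.60 at 8 weeks and did not pass. The mean log2 value of the 8 was 6.29 at 50 weeks and 5.61 at 8 weeks. Of 4 B and plasma cell genes 3 were higher, and Pax5, Tnfrsf17 and Cr2 were detected on 0 arrays. All 4 were detected on 6 of 6 arrays of 50 weeks but on at most 2 of 6 of 8 weeks. The filter thus kept them mainly through the age where they read higher, and the count of higher genes is partly set by it. Their summed intensities were 180 to 730 at 50 weeks and 87.8 to 217 at 8 weeks, where they lay near the floor. Of 8 fibroblast genes 1 was higher and 5 were lower. Their summed intensities, 4910 to 6883 at 50 weeks and 6084 to 8448 at 8 weeks, came largely from Dcn. That gene averaged 12.27 at 50 weeks and 12.41 at 8 weeks and did not pass. The mean log2 value of the 8 fibroblast genes was 7.88 at 50 weeks and 8.40 at 8 weeks. The part of these cells in the differences of Ctsa, Hexa, Ctsc and Gusb was not tested.

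**Figure D5:**
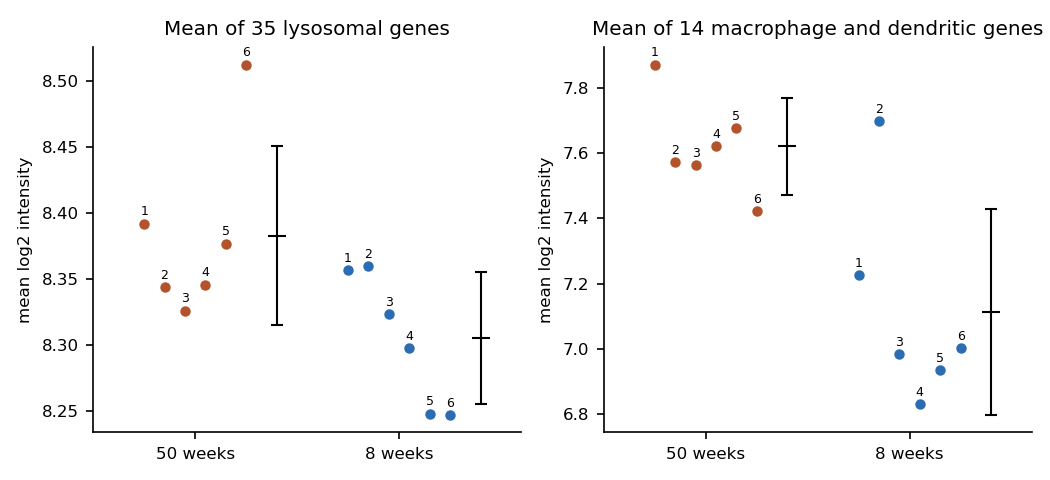
Mean log2 intensity per array (y axis) over the 35 lysosomal genes (left panel) and over 14 genes of macrophages and dendritic cells (right panel), with 50 weeks left of 8 weeks, array numbers above the points and the mean ± SD of 6 arrays beside them. Array 6 of 50 weeks is highest for the lysosomal genes and lowest of its age for the macrophage genes. Array 1 of 50 weeks is highest for the macrophage genes, at 7.87, and reads 8.39 for the lysosomal genes. Array 2 of 8 weeks is highest of its age for the macrophage genes, and barely so for the lysosomal genes (8.3596, against 8.3565 on array 1).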

How the data were processed

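Each array held 1 biotin-labelled cRNA. Per the labels, Trizol RNA was cleaned on RNeasy columns with DNase I and labelled by the Ambion MessageAmp method. One deposited table gives a linear probe intensity for 45281 probes on 12 arrays, with no scaling stated by the authors. Per the file headers, a detection p-value follows each intensity. A second deposited table holds the same intensity times 1 factor per array (0.803 to 1.26). The scanning software is not given in the sources used here.

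Background was corrected and quantile normalisation applied by neqc of limma 3.58.1 (offset 16, R 4.3.3), which returns log2 values. Of the probes 34885 had 1 gene symbol in the platform annotation, 18 had several and 10378 had none, and the brightest kept probe stood for a gene. The ages were compared by limma (lmFit, eBayes) on all 12 arrays. The same fit was then run on simulated data with known changes, drawn from the means and spread of these genes, with no array set apart. A gene with a group mean below the array floor (mean 4.92 at 50 weeks, 5.02 at 8 weeks), or detected on at most 3 of 6 arrays of an age, has a bound on its fold. The number of arrays limits the precision. All members are given, with up to 4 called genes per pathway list and 2 per marker list. Amy1, Smr3a, Muc19, Tfe3, Zap70, Prf1, Dcn and genes not detected on any array are named besides. The members and lists were chosen with earlier results of these data known. Alternatives changed the background, scaling, filter, probe choice, weights and arrays.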

Additional observations from a re-analysis of the deposited data

Results flagged for a closer look

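For each of the 35 lysosomal genes and their mean, the highest or lowest array of each age was set against the others by Dixon's criterion for 6 arrays (the gap to the nearest array over the range). Of 72 groups checked 14 exceeded it, where chance gives about 1 in 20, and 10 of the 14 were 50 weeks array 6. That array was highest at 50 weeks for Ctsc (9.28, next 9.11), Scarb2 (7.307, next 6.825), Ctsd (7.372, next 6.816), Npc1 (8.687, next 8.323), Glb1 (8.297, next 7.563), Npc2 (9.434, next 8.996), Arsa (7.293, next 6.738) and the mean of all members (8.512, next 8.392). It was lowest for Ppt1 (5.206, next 6.381) and Cd63 (10.29, next 10.63). Ctsa was highest on 50 weeks array 1 (8.112, next 7.73). At 8 weeks, Ppt1 was lowest on array 5 (5.508, next 6.012), Psap was highest on array 2 (11.99, next 11.70) and Npc1 was lowest on array 4 (8.124, next 8.335).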

How the results depend on the processing

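Ctsa, Hexa, Ctsc and Gusb kept their call when any 1 array was left out, and the 6 called members kept their direction under all 23 alternatives. Scaling arrays to the same median moved the median of all genes to 0.10 and left 2 members called, Ctsa and Hexa (2 higher, 0 lower), with 322 higher and 73 lower genes in all, 5 companion genes and a member mean difference of 0.20, or 0.10 relative to that median. Ctsc and Gusb then had limma adjusted p = 0.0757 and 0.0863 at 0.45 and 0.43 relative to it. The number of lower members was 1 without background correction, with an offset of 50, without the detection filter and with the mean of all kept probes, and 0 on the authors' values (347 lower genes in all), in the fit over all kept probes (chosen after seeing the data) and with the replicate block. That replicate block, fitted on the array numbers, called 4 members, without Lamp2 and Ctsf, and the numbers were not taken to pair the arrays, since same-numbered arrays' deviations correlated at -0.009 to 0.298 and 3 of 12 arrays correlated best with their own number. Acinar marker means were lowest on arrays numbered 3 and 5 at both ages (11.95 and 12.00 at 50 weeks, 12.12 and 12.45 at 8 weeks). Array weights gave 12 members (8 higher, 4 lower), 1155 higher and 1438 lower genes in all and 41 companion genes, against 18 in the report's fit. Without both 8 weeks array 2 and 50 weeks array 6 there were 13 members (8 higher, 5 lower), 1138 higher and 1402 lower genes in all and 46 companion genes. Leaving out 1 array gave 4 to 12 members, 4 to 7 higher and 0 to 5 lower, a member mean difference of 0.05 to 0.09, 10 to 36 companion genes, and 429 to 1071 higher and 381 to 1277 lower genes in all, with the highest of each count without 50 weeks array 6.

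Members that passed in no fit concerned changed sign 26 times. With median scaling these were Ctsb (0.084), Tpp1 (0.036), Glb1 (0.078), Manba (0.047), Asah1 (0.045), Smpd1 (0.016) and Npc1 (0.060), all negative relative to the median of all genes. On the authors' values Ctsb was 0.0096 and Fuca1 -0.027. With the mean of kept probes Manba was 0.0084, Arsb -0.027, Scarb2 -0.087 and Cd63 -0.013. With array weights Ctsd was -0.074 and Scarb2 -0.036. With 8 weeks array 2 and 50 weeks array 6 left out together Ctsd was -0.117, Sgsh -0.035 and Scarb2 -0.048. With single arrays left out Glb1 ran from -0.209 to 0.012, Ctsd from -0.093 to 0.054, Sgsh from -0.059 to 0.160 and Scarb2 from -0.051 to 0.089. The cause of these changes was not tested.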

Other observations

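Other cell markers had these values. Of 13 acinar genes 1 was higher at 50 weeks, Bhlha15, a transcription factor of secretory cells (0.41 ± 0.11, limma adjusted p = 0.0309, and up to 0.0676 without 1 of 8 of the arrays). Of 6 granular duct genes Klk1, a kallikrein, was lower (-0.73 ± 0.09), and of 9 duct epithelium genes 2 were higher and 1 lower, with Ascl3, a transcription factor of duct progenitors, at -0.85 ± 0.14 and the chloride channel gene Cftr at 0.60 ± 0.17 (limma adjusted p = 0.0332, and up to 0.072 without 1 array). Of 7 endothelial genes Cdh5 was lower (-0.45 ± 0.13, limma adjusted p = 0.0442, and up to 0.0971 without 1 array). In limma 0 of 2 adipocyte genes and 0 of 1 neutrophil and mast cell gene passed, and the sublingual marker Muc19 did not pass either. Of these genes 0 had an unadjusted p under 0.05.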
